A study of Mus musculus with 9 samples.

Results

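Cathepsins are the proteases of the lysosome, and their messenger RNAs were followed here with those of Lamp1 and Cd68, a pair of heavily glycosylated proteins of the lysosomal membrane. The 10 genes were Ctsl, Ctsb, Ctsd, Ctss, Ctsh, Ctsk, Ctsc, Ctsz, Lamp1 and Cd68, taken by symbol from 52208 genes in the table. The set was put together around Ctsl, an abundant transcript already seen to be lower with the Eya3 hairpin and part of the way back with active IKK2. The values of Ctsl are therefore given as a description, with no test.

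The cells were 66cl4, a mouse mammary carcinoma line labelled as triple negative, grown in culture and sequenced as 9 messenger RNA libraries. In the scramble group a non-targeting hairpin was combined with the empty expression vector. In the knockdown group the hairpin was directed at Eya3, a transcriptional coactivator with phosphatase activity, again with the empty vector. The add-back group had this Eya3 hairpin plus IKK2-SE, which is an always-active IKK2, the kinase upstream of NF-kB. All cells were kept in puromycin and selected on mCherry, and each of the 3 groups had 3 biological replicates. Whether each replicate was transduced on its own is not in the labels, and the p-values reflect only how far these libraries differ. There was 1 Eya3 hairpin, and IKK2-SE was not combined with the scramble hairpin.

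Most cathepsins are papain-like cysteine proteases that are made as inactive precursors, carried to the lysosome on mannose 6-phosphate receptors and activated by acid pH. Some, cathepsins B and L among them, are also secreted by tumour cells, where they can cut matrix and cell surface proteins. Cystatins are their protein inhibitors, and the transcription factors TFEB and TFE3 raise many lysosomal genes through E-box sequences in their promoters.

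Levels are in CPM, counts scaled to one library size after TMM normalization, with the SD of 3 libraries. Differences are log2 fold changes ± SE, taken from an edgeR quasi-likelihood fit over all 9 libraries. A gene was called at a Benjamini-Hochberg adjusted p under 0.05 over 16766 tested genes. Library totals ran from 63601403 to 81534534 counts. The targeted gene Eya3 averaged 62.7 ± 1.63 CPM in scramble, 25.0 ± 0.60 CPM in knockdown and 26.6 ± 2.21 CPM in add-back libraries, lower in both hairpin groups as labelled. Of markers of mammary epithelium, Krt8 had 628 CPM on average in the scramble libraries, while Epcam and Cdh1 were close to 0, at 0.0444 and 0.0760 CPM. Markers also differed between the groups. Krt8 averaged 1329 CPM in knockdown and 1073 CPM in add-back libraries. Krt14 went the other way, at 1.24, 0.305 and 0.120 CPM in scramble, knockdown and add-back libraries, as did Krt19, at 0.606, 0.0595 and 0.0278 CPM. Of 6 tested epithelial markers, 3 were called higher and 2 lower in knockdown than in scramble cells, against 27.7% and 29.9% of all tested genes. Of 6 tested fibroblast markers, 4 were called higher and 2 lower in knockdown than in scramble cells, against 27.7% and 29.9% of all tested genes. Krt5, Col1a2, Col3a1 and Dcn passed the filter on low counts only through libraries with the Eya3 hairpin, where they were higher. Nothing is read from these counts of calls. Col3a1 averaged 0, 13.4 and 11.99 CPM and Pdgfrb 1.24, 7.08 and 10.7 CPM in scramble, knockdown and add-back libraries. Pdgfra, the most abundant of them, averaged 47.9, 39.8 and 42.7 CPM and Col1a1 3.96, 2.59 and 1.52 CPM, while Thy1 had no count. Of the endothelial markers, Cdh5 averaged 4.36, 0.226 and 0.634 CPM and Emcn 0, 0.162 and 0.226 CPM, and Cldn5 had no count. Of the marker lists, 9 fibroblast genes summed to 51.9 to 54.3, 64.03 to 69.2 and 68.5 to 70.9 CPM and 8 endothelial genes to 5.13 to 6.02, 0.651 to 1.15 and 1.70 to 2.02 CPM, in the same order. The part of these differences in the results was not tested.

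The promoters of 8 of the 10 genes were found in RefSeq's table for GRCm38.p6, as windows from 250 bases before to 50 after RefSeq's annotated start. That start is the 5′ end of the GENCODE gene for Ctsz and Lamp1, and lies 17 bases before it for Cd68. For Ctsl and Ctsd it lies 370 and 211 bases inside the GENCODE gene, so the Ctsl window lies wholly and the Ctsd window mostly within the gene span given with its results. Those of the 5 genes the results turn on are shown 5′ to 3′ because they differ in the lysosomal E-box. Capitals mark the E-box CACGTG, the core TCAGGTT of the MEF3 element bound by the homeobox factors that are the DNA-binding partners of Eya proteins, or a match to the kB consensus of NF-kB. The promoters of Ctsb and Ctsh are not shown.
Ctsl (chr13:64370471-64370770, minus strand): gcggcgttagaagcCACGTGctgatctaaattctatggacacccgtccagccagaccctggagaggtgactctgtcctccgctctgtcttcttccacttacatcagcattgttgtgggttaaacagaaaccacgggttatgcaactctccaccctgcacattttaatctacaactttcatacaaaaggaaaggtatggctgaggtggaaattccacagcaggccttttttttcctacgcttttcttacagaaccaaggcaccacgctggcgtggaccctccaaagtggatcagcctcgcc
Ctsz (chr2:174438990-174439289, minus strand): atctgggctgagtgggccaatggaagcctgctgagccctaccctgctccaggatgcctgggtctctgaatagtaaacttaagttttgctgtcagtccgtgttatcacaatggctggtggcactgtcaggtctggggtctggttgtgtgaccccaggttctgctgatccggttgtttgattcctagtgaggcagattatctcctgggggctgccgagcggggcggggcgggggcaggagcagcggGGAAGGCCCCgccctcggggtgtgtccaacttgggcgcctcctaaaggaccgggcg
Ctsd (chr7:142387778-142388077, minus strand): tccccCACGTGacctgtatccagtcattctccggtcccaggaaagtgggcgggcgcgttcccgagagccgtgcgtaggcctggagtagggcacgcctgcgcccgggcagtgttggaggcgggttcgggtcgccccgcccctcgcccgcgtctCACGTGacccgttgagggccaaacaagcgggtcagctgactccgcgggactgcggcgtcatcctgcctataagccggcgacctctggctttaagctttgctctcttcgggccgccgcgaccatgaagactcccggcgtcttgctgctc
Lamp1 (chr8:13158911-13159210, plus strand): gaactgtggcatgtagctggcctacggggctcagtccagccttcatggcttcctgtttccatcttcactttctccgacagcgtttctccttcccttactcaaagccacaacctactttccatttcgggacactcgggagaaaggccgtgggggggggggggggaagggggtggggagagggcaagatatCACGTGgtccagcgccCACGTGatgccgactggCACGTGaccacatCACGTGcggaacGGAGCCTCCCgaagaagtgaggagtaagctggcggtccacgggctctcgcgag
Cd68 (chr11:69666121-69666420, minus strand): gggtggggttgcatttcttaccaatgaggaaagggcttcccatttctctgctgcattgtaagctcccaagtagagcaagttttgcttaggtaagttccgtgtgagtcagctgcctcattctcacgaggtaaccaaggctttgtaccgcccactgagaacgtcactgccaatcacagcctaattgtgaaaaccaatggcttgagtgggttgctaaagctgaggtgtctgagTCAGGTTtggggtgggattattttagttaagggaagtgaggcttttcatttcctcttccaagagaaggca

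On either strand, CACGTG occurred 4 times in the Lamp1 window, 2 times in that of Ctsd and 1 time in that of Ctsl, where it began at position -236 from the RefSeq start. It was not found in the windows of Ctsz, Cd68, Ctss, Ctsk or Ctsc, and 7.15% of all 32851 windows held it. A kB match was present in the windows of Ctsz and Lamp1, as in 8.46% of windows, and TCAGGTT in that of Cd68, as in 4.07%. The kB match in the Ctsz window overlapped a GC box, searched as GGGCGG, which stood 3 times in that window and in 35.7% of all windows. These matches describe letters in a window and say nothing about binding.

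Ctsl, which encodes the cysteine endopeptidase cathepsin L, was by far the most abundant of the 10 genes, lowest in the knockdown cells and between the other groups in the add-back cells. The gene lies on chromosome 13, 64359337 to 64370890, minus strand, GRCm38/mm10. Its level was 3879.6, 3864 and 4199 CPM in the scramble libraries, 2419.5, 2575 and 2617 CPM in the knockdown libraries, and 3095, 3137 and 3207 CPM in the add-back libraries. No libraries of different groups overlapped. The means were 3981 ± 189, 2537 ± 104 and 3146 ± 56.8 CPM, so the knockdown cells stood 1.57-fold under the scramble cells. On the log2 scale the difference was -0.65 ± 0.04 between knockdown and scramble, 0.31 ± 0.04 between add-back and knockdown, and -0.34 ± 0.04 between add-back and scramble. The return thus came to 47.8% of the knockdown difference on that scale.

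By raw count Ctsl ranked from 9 to 10 among all genes in the scramble libraries, from 18 to 22 in the knockdown libraries and from 10 to 14 in the add-back libraries. It took 0.404 ± 0.020% of all counts in the scramble, 0.249 ± 0.010% in the knockdown and 0.315 ± 0.007% in the add-back cells. Set against the length of its best-supported transcript (1971 bases), Ctsl stood at 2019.6 ± 95.9 CPM per kb in the scramble cells. It made up 89.2 ± 0.54% of the summed level per kb of the 8 cathepsins there, 86.4 ± 0.84% in the knockdown and 88.6 ± 0.53% in the add-back cells. The share depends on the length used, and came to 72.6 ± 1.12%, 67.0 ± 1.58% and 71.4 ± 1.08% with all annotated exons of Ctsl (6168 bases).

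**Figure D1:**
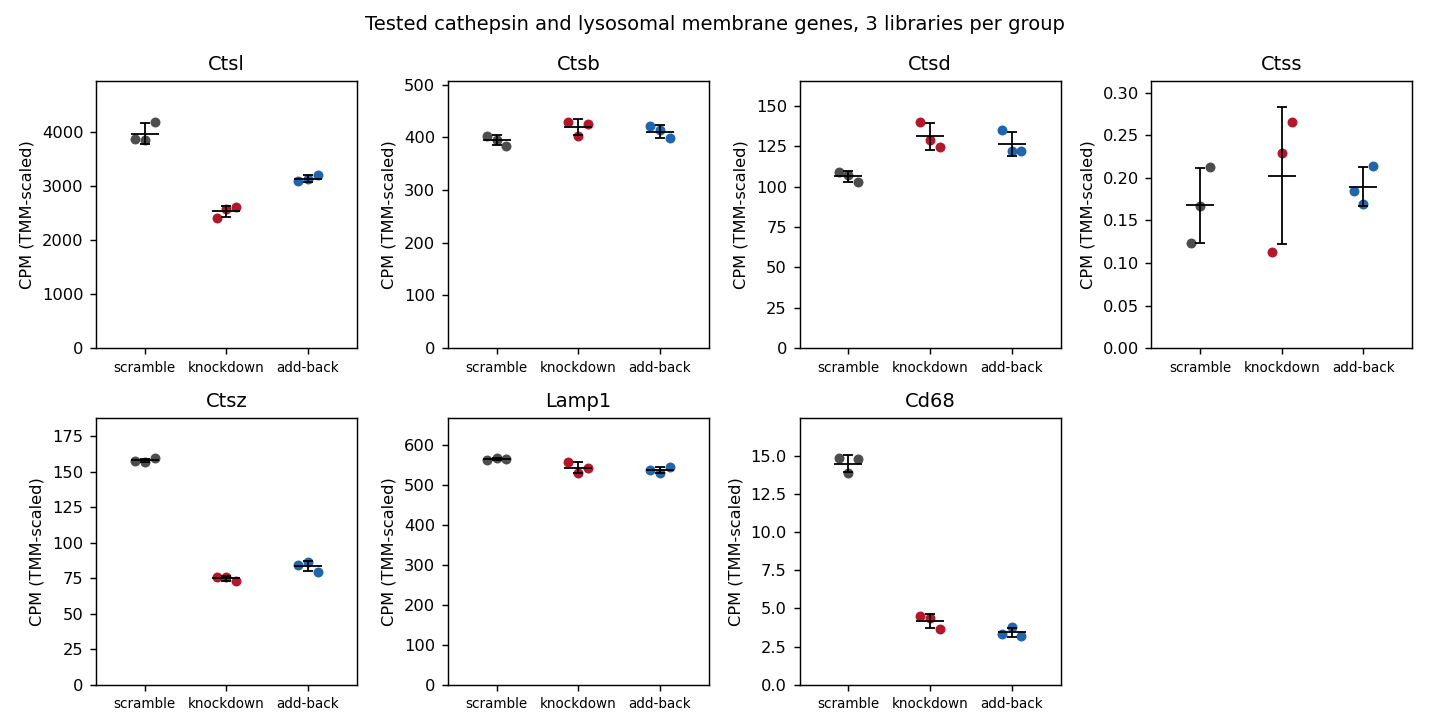
Level of the 7 tested genes in each library (points, CPM on a linear axis from 0) by group, with the mean and SD of 3 libraries in black. Ctsl, Ctsz and Cd68 are lower in both groups with the Eya3 hairpin than in the scramble cells, Ctsd is higher, and Lamp1 lies between 529.8 and 566 CPM in all 9 libraries.

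Of the 9 other genes, 6 had enough counts for a test and Ctsh, Ctsk and Ctsc did not. Between knockdown and scramble cells, Ctsz and Cd68 fell, Ctsd rose, and Ctsb, Ctss and Lamp1 did not pass. Over all tested genes 57.5% were called in this comparison, 27.7% higher and 29.9% lower, and nothing is read from the 3 of 6. With active IKK2 added to the knockdown, 1 of the 6 passed, Ctsz, upward, against 10.4% of all tested genes (5.61% higher, 4.82% lower). Between add-back and scramble cells 3 of the 6 were called, again Ctsd, Ctsz and Cd68, against 55.8% of all tested genes. The last 2 comparisons each share a group with the first.

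Ctsz encodes cathepsin Z, a carboxypeptidase, and lies on chromosome 2, 174427493 to 174439039, minus strand. It was at 157.9, 156.8 and 159.4 CPM in scramble, 75.9, 76.1 and 72.9 CPM in the knockdown, and 84.6, 86.5 and 79.6 CPM in the add-back libraries. All scramble libraries lay above the others, and all add-back libraries lay above the knockdown libraries. Ctsz fell by 1.08 ± 0.04 with the Eya3 hairpin (edgeR adjusted p = 1.05e-12), a 2.11-fold lower level.

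With active IKK2, Ctsz rose by 0.16 ± 0.04 between knockdown and add-back cells (edgeR adjusted p = 0.0166), which returned 14.5% of the difference. This call was lost without knockdown replicate 3 (adjusted p = 0.0697), add-back replicate 1 (0.0528) or add-back replicate 2 (0.0753), with a range of adjusted p from 0.00224 to 0.0753 among 17 alternatives. Between add-back and scramble cells the log2 difference of Ctsz was -0.92 ± 0.04 (edgeR adjusted p = 7.71e-12).

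Ctsd encodes cathepsin D, an aspartic protease with no relation to the cysteine cathepsins, and lies on chromosome 7, 142375911 to 142388038, minus strand. The scramble libraries held 109.3, 107.2 and 102.9 CPM, the knockdown libraries 140.3, 129.1 and 124.4 CPM, and the add-back libraries 135.2, 122.5 and 122.3 CPM. Every library with the Eya3 hairpin lay above every scramble library, and the 2 hairpin groups overlapped. Ctsd rose by 0.30 ± 0.05 (edgeR adjusted p = 7.00e-05), and its difference between add-back and knockdown was -0.05 ± 0.05 (edgeR adjusted p = 0.629). Against scramble the add-back cells were higher in Ctsd by 0.25 ± 0.05 (edgeR adjusted p = 0.000433).

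Ctsb encodes cathepsin B, which acts as an endopeptidase and as a peptidyl-dipeptidase (an enzyme that removes dipeptides from the carboxyl end; chromosome 14, 63122462 to 63145923, plus strand). Its libraries overlapped between all groups, at 404, 395 and 384 CPM in scramble, 429.8, 402 and 426 CPM in the knockdown, and 421, 414 and 398 CPM with active IKK2. The difference between knockdown and scramble was 0.09 ± 0.04 and did not pass (edgeR adjusted p = 0.0600). It lay at the threshold: 6 of 17 alternatives called Ctsb higher, among them leaving out knockdown replicate 2 (adjusted p = 0.0233), add-back replicate 1 (0.0479) or add-back replicate 3 (0.0466), and the range was 0.0124 to 0.384. Between add-back and knockdown cells Ctsb differed by -0.03 ± 0.04 (edgeR adjusted p = 0.746).

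Ctss, Ctsk, Ctsh and Ctsc were at or near the lower limit of the counts. Ctss, an endopeptidase best known from antigen-presenting cells, had 8, 13 and 16 counts in the scramble, 9, 18 and 20 in the knockdown and 14, 12 and 15 in the add-back libraries, with no separation of the groups. Ctsk, the collagen-cutting cathepsin of osteoclasts, had 3, 5 and 6, then 5, 0 and 6, then 11, 7 and 17 counts in the same order. The 3 add-back libraries were the highest for Ctsk, which was not tested.

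Ctsh, an aminopeptidase, had 0, 5 and 7 counts in the scramble libraries and none in any of the 6 libraries with the Eya3 hairpin, where a count of 0 allows up to 3 counts, or 0.0368 to 0.0432 CPM of the single library totals. Ctsc, which activates serine proteases of granules, had 3 counts in add-back replicate 3 and none in the other libraries. These limits cover counting error only. Ctsh was not tested, and 1 of the scramble libraries also held no count.

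Lamp1, the standard marker of the lysosomal membrane, differed little in level between the groups and was not called (chromosome 8, 13159161 to 13175338, plus strand). It stood at 563, 566 and 565 CPM in scramble, 556, 529.8 and 543 CPM in the knockdown, and 538, 529.9 and 544 CPM in the add-back libraries. The scramble libraries were all above the others, by little. The differences of -0.06 ± 0.03 between knockdown and scramble and -0.07 ± 0.03 between add-back and scramble did not pass (edgeR adjusted p = 0.164 and 0.0822). With library totals as the scaling both passed (adjusted p = 0.0143 and 0.0301), and the second also passed with DESeq2 (0.0377).

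Cd68, a scavenger receptor-like protein of late endosomes and lysosomes best known from macrophages, showed the largest change of the 7 tested genes (chromosome 11, 69664213 to 69666153, minus strand). Its level was 14.8, 13.8 and 14.8 CPM in scramble, 4.52, 4.38 and 3.68 CPM in the knockdown, and 3.33, 3.77 and 3.19 CPM in the add-back libraries. The scramble libraries lay above all others, and the 2 hairpin groups overlapped. Cd68 fell by 1.79 ± 0.09 (edgeR adjusted p = 8.98e-11), a 3.45-fold lower level, and the add-back cells stood at -2.08 ± 0.10 against scramble (edgeR adjusted p = 2.27e-11).

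Between add-back and knockdown cells the difference of Cd68 was -0.29 ± 0.10, in the direction opposite to Ctsl and Ctsz. It did not pass (edgeR adjusted p = 0.0885), but did without knockdown replicate 3 (adjusted p = 0.0325).

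**Figure D2:**
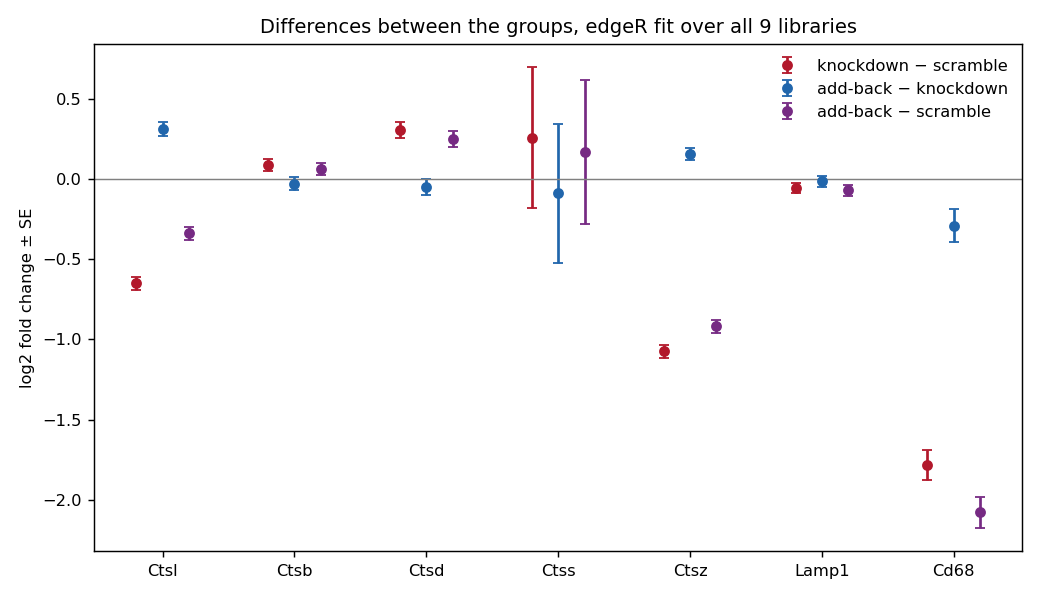
Log2 fold change (points) with its SE (bars) of the 7 tested genes in the 3 comparisons, from 1 edgeR fit over all 9 libraries. Against scramble, Ctsl goes from -0.65 in the knockdown to -0.34 in the add-back and Ctsz from -1.08 to -0.92, both toward 0, while Cd68 goes from -1.79 to -2.08, away from 0; Ctsl is shown without a test.

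Markers of macrophages were looked at beside Cd68. Of 14 such genes, 5 were tested. Between knockdown and scramble cells 2 were called lower and none higher, against 29.9% and 27.7% of all tested genes. With active IKK2, 3 were called higher and none lower, against 5.61% and 4.82% of all tested genes. Their summed level ran from 37.2 to 40.5 CPM in scramble, 23.1 to 26.8 CPM in the knockdown and 35.8 to 38.5 CPM in the add-back libraries. The sum was carried by Lyz2, Cd14 and Mrc1, whose scramble means were 17.1, 15.3 and 6.005 CPM. Cd14 and Mrc1 were at 7.498 and 0.929 CPM in the knockdown, and Lyz2 was at 16.5 CPM. Csf1r and C1qb, the other tested markers, averaged 0.0825 and 0.110 CPM in scramble and 0.195 and 0.189 CPM in knockdown libraries. The defining markers were at or near 0 in the scramble cells, with Adgre1 at 0 CPM, Ptprc at 0.0217 CPM and Csf1r at 0.0825 CPM, and Tyrobp and C1qa had no count in any library. Of 6 osteoclast markers only Acp5 was tested, at 0.513 CPM in the scramble cells, and it was not called. In bulk RNA, fewer expressing cells and less RNA per cell cannot be told apart.

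Ordered by level per kb of transcript, the scramble cells had Ctsl, then Lamp1 at 253 ± 0.702, Ctsz at 109.7 ± 0.927, Ctsb at 83.2 ± 2.03, Ctsd at 50.04 ± 1.52 and Cd68 at 11.8 ± 0.455 CPM per kb. None of these neighbours in the order lay within the other's spread. In the knockdown cells the order was Ctsl at 1287 ± 52.8, Lamp1 at 244 ± 5.84, Ctsb at 88.4 ± 3.14, Ctsd at 61.7 ± 3.85, Ctsz at 52.0 ± 1.26 and Cd68 at 3.41 ± 0.366 CPM per kb. Ctsz thus went from above to below Ctsb and Ctsd. In the add-back cells Ctsd at 59.5 ± 3.49 and Ctsz at 58.0 ± 2.46 CPM per kb did not differ beyond their spread. In all 3 groups Ctss, Ctsk, Ctsh and Ctsc were at most at 0.149 CPM per kb.

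The ratio of Ctsl to the other abundant proteases differed between the groups. Per kb, Ctsl exceeded Ctsb by 24.3 ± 1.72-fold in the scramble, 14.6 ± 0.946-fold in the knockdown and 18.4 ± 0.869-fold in the add-back cells. It exceeded Ctsd by 40.4 ± 3.14-fold, 21.0 ± 2.11-fold and 26.9 ± 1.92-fold in the same order. Both ratios were lower in each knockdown library than in each add-back library, and lower there than in each scramble library. These ratios contain Ctsl and are a description. Their size depends on the length used for Ctsl, here 1971 bases, and would be smaller with all its annotated exons (6168 bases). The order of the groups does not depend on that length.

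**Figure D3:**
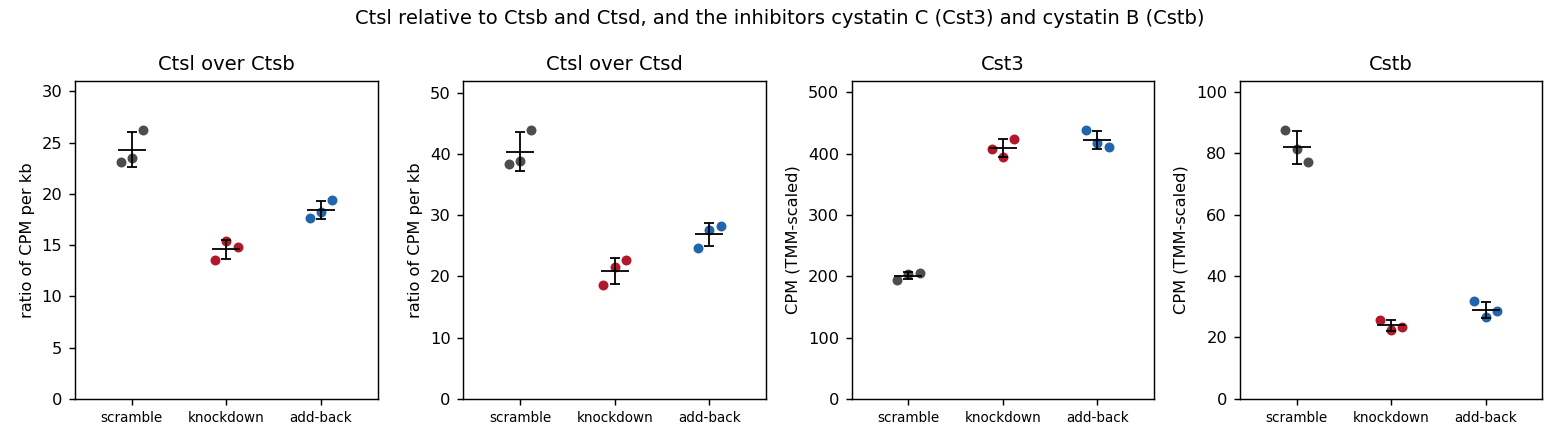
Ratio of the level of Ctsl per kb to that of Ctsb and Ctsd, and the level of the inhibitor genes Cst3 and Cstb in CPM, for each library (points) with the mean and SD of 3 libraries (black). Cst3 lies between 194 and 206 CPM in the scramble libraries and at 395 CPM or more in both hairpin groups, while Cstb lies at 77.0 CPM or more in the scramble libraries and at 31.8 CPM or less in the others.

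Of the cystatin genes, Cst3 rose and Cstb fell with the Eya3 hairpin. Cst3, which encodes the secreted inhibitor cystatin C, was at 194, 203 and 206 CPM in scramble, 407, 395 and 425 CPM in the knockdown, and 439, 418 and 411 CPM in the add-back libraries. Cst3 rose by 1.02 ± 0.04 with the Eya3 hairpin (edgeR adjusted p = 2.98e-12) and differed by 0.05 ± 0.04 between add-back and knockdown (edgeR adjusted p = 0.561). The hairpin groups overlapped and lay far above the scramble libraries.

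Cstb encodes cystatin B, an inhibitor inside the cell, and was at 87.7, 81.2 and 77.0 CPM in scramble, 25.8, 22.4 and 23.5 CPM in the knockdown, and 31.8, 26.7 and 28.7 CPM in the add-back libraries. Cstb fell by 1.78 ± 0.07 (edgeR adjusted p = 2.74e-12) and rose by 0.28 ± 0.07 with active IKK2 (edgeR adjusted p = 0.0156). That rise was lost without knockdown replicate 2 (adjusted p = 0.0884), knockdown replicate 3 (0.0538) or add-back replicate 1 (0.0768).

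Stfa3, a mouse stefin A gene of the same inhibitor family, had 0, 1 and 0 counts in the scramble libraries, none in the knockdown libraries and 146, 111 and 106 in the add-back libraries. Its add-back level of 1.67 ± 0.224 CPM was at least 130-fold higher than the knockdown floor of 3 counts over the group. Stfa3 passed the filter on low counts only through its add-back libraries, so its values are given as a description. Stefin A genes are near-identical copies, and reads may be split between them. Of 12 inhibitor genes listed, 11 were in the table and only 3 were tested. In the knockdown 1 was called higher and 1 lower, against 27.7% and 29.9% of all tested genes. With active IKK2, Cstb was called higher, against 5.61% of all tested genes, with Stfa3 left out of the count because of the filter. Nothing is read from these counts.

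Of 14 other cathepsin genes, 4 were tested and 8 had no count in any library. Ctsa, the carboxypeptidase that protects beta-galactosidase and neuraminidase, fell by 0.41 ± 0.04 with the Eya3 hairpin, from 132 ± 3.05 to 98.9 ± 3.13 CPM (edgeR adjusted p = 5.65e-07). Ctso, a cysteine cathepsin, had 31.3 ± 0.603 CPM in scramble, 28.7 ± 0.827 CPM in the knockdown and 36.0 ± 2.04 CPM in the add-back cells, and rose by 0.33 ± 0.05 with active IKK2 (edgeR adjusted p = 0.000423). Its fall of 0.12 ± 0.05 with the hairpin was at the threshold (edgeR adjusted p = 0.0493), and was lost in 10 of 17 alternatives: without any 1 of the scramble or knockdown libraries or add-back replicate 1 or 3 (adjusted p from 0.0541 to 0.177), with limma voom and with no filter on low counts.

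Over 5 further lists of lysosomal genes, 74 of 107 tested genes were called between knockdown and scramble cells, or 69.2% against 57.5% of all tested genes, with 36.4% higher and 32.7% lower. With active IKK2, 11 of the 107 were called, or 10.3% against 10.4% of all tested genes, so the share was that of the background. Of 23 tested genes of the lysosomal membrane, 5 rose and 7 fell in the knockdown cells, 52.2% called against the 57.5% of all genes, with a median of -0.06 against -0.00 over all tested genes. The tetraspanin gene Cd63 fell by 0.76 ± 0.04, from 429 to 254 CPM, and the nucleic acid transporter gene Sidt2 and the nucleoside transporter gene Slc29a3 fell by 0.70 ± 0.06 and 0.65 ± 0.07. Laptm4b rose by 0.33 ± 0.05. With active IKK2 only Hgsnat, a heparan sulphate acetyltransferase gene, was called of the 23, lower by a log2 difference of -0.13 ± 0.04 (edgeR adjusted p = 0.0378), a call lost in 11 of 17 alternatives, which include leaving out any 1 library other than scramble replicate 3 (adjusted p from 0.0558 to 0.140).

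Of 35 tested lysosomal hydrolases, 14 rose and 12 fell in the knockdown cells, 74.3% called against the same 57.5%, with a median of 0.04. Galc, the galactosylceramidase, rose by 1.503 ± 0.043, from 48.9 to 138.7 CPM. Lgmn, the asparaginyl protease that cuts cathepsin precursors, rose by 0.49 ± 0.04, and the sulphatase gene Arsa fell by 0.51 ± 0.04. With active IKK2, 3 of the 35 rose and 2 fell. Lipa, the acid lipase, rose by 0.42 ± 0.05 (edgeR adjusted p = 9.47e-06) on top of a rise in the knockdown, and the sulphatase gene Ids fell by 0.31 ± 0.06 (edgeR adjusted p = 0.00196). The calls of Fuca1 and Galc were lost in 7 and 10 of 17 alternatives. Among these were, for both genes, leaving out scramble replicate 2, knockdown replicate 2 or 3, or add-back replicate 1, with adjusted p up to 0.166 and 0.207.

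Among 17 tested genes for activators, sorting and delivery, 5 rose and 7 fell with the hairpin (70.6% called against 57.5% of all genes, median -0.05), and 1 rose and 2 fell with active IKK2. Gnptab, which makes the mannose 6-phosphate tag, fell by 0.85 ± 0.05, Grn, the progranulin gene, fell by 0.70 ± 0.05 and the adaptor gene Ap3b1 fell by 0.39 ± 0.03. Gm2a, the ganglioside activator, rose by 0.63 ± 0.05. With active IKK2, Npc2 differed by 0.15 ± 0.04 and Gm2a by -0.21 ± 0.05, with edgeR adjusted p of 0.0124 and 0.0175. Npc2 lost its call without knockdown replicate 2 (0.0654) or add-back replicate 1 (0.0579). Gm2a lost it without knockdown replicate 2 (0.0847) or 3 (0.0781), or add-back replicate 1 (0.0511) or 3 (0.0837).

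Among 16 tested vacuolar ATPase genes, the proton pump that acidifies the lysosome, 5 rose and 5 fell with the hairpin (62.5% called against 57.5% of all genes, median -0.06) and 1 fell with active IKK2. Atp6v0a2 rose by 0.74 ± 0.04 and Atp6ap1 by 0.35 ± 0.04, while Atp6ap2 and Atp6v1f fell by 0.27 ± 0.04 and 0.31 ± 0.05. Atp6ap1 fell by 0.16 ± 0.04 with active IKK2 (edgeR adjusted p = 0.00945).

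Among 16 tested transcription factors and regulators of the lysosome, 10 rose and 4 fell with the hairpin (62.5% higher and 25.0% lower, against 27.7% and 29.9% of all genes; median 0.15), and 1, the kinase gene Mtor, rose with active IKK2 by 0.21 ± 0.05 (edgeR adjusted p = 0.0170). The Mtor call was lost without knockdown replicate 2 (adjusted p = 0.0850), knockdown replicate 3 (0.0675) or add-back replicate 1 (0.0826). Lamtor3 and Lamtor2, subunits of the Ragulator complex that docks mTORC1 on lysosomes, rose by 0.54 ± 0.05 and 0.43 ± 0.04. Flcn, the folliculin gene, rose by 0.61 ± 0.08 and its partner Fnip1 fell by 0.34 ± 0.04.

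**Figure D4:**
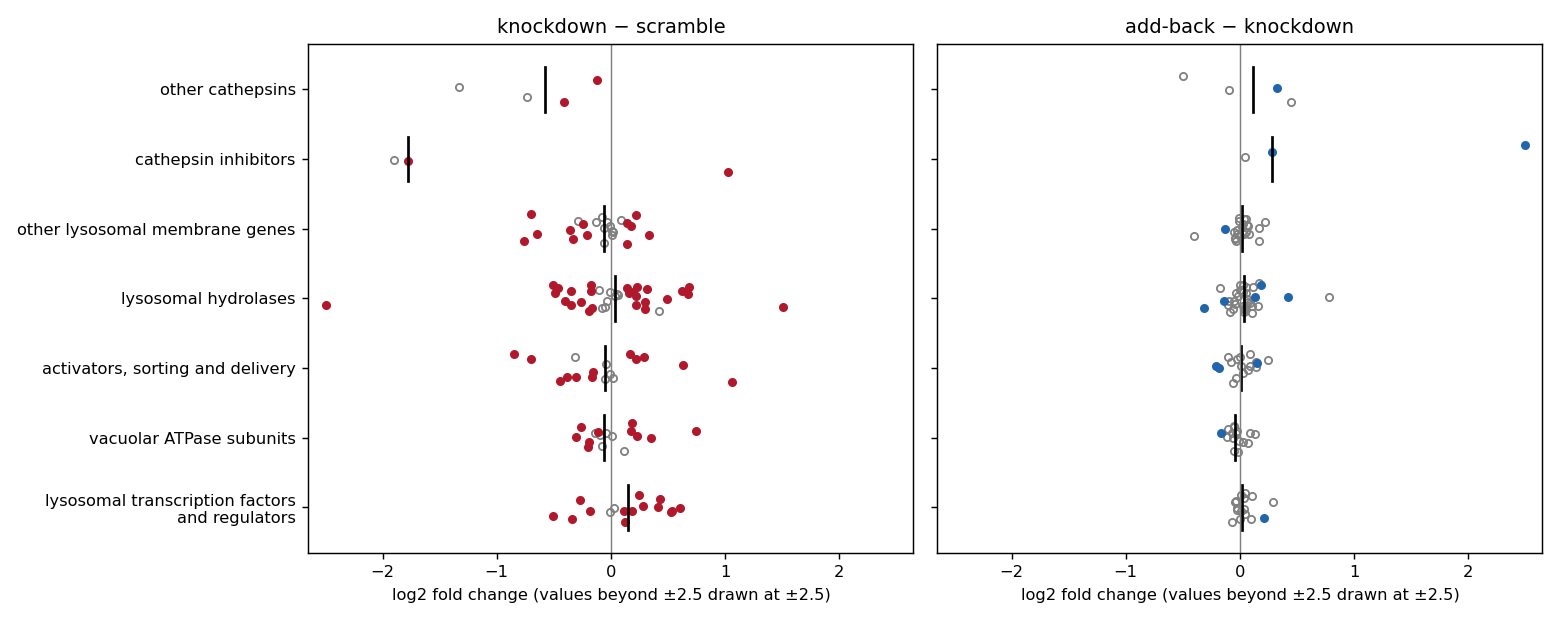
Log2 fold change of each tested gene of 7 lists of lysosomal genes (points; filled where the edgeR adjusted p was under 0.05, open where not), with the list median as a black bar and the points beyond ±2.5, Dpp7 on the left and Stfa3 on the right, drawn at that edge. With the Eya3 hairpin most lists hold filled points on both sides of 0, and with active IKK2 most points are open and lie near 0.

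Each gene was also set beside the median of the 40 nearest tested genes on its chromosome. Between knockdown and scramble cells that median was -0.25 around Ctsl, -0.21 around Cd68, -0.03 around Ctsz, 0.01 around Ctsd, 0.05 around Ctsb and 0.06 around Lamp1. It was 0.47 around Ctss and Ctsk, which are neighbours on chromosome 3. The differences of Ctsl and Cd68 were thus in the direction of their neighbours and larger, and their neighbours' part in them was not tested. Between add-back and knockdown cells the median was 0.09 around Ctsl, where Ctsl itself differed by 0.31.

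**Figure D5:**
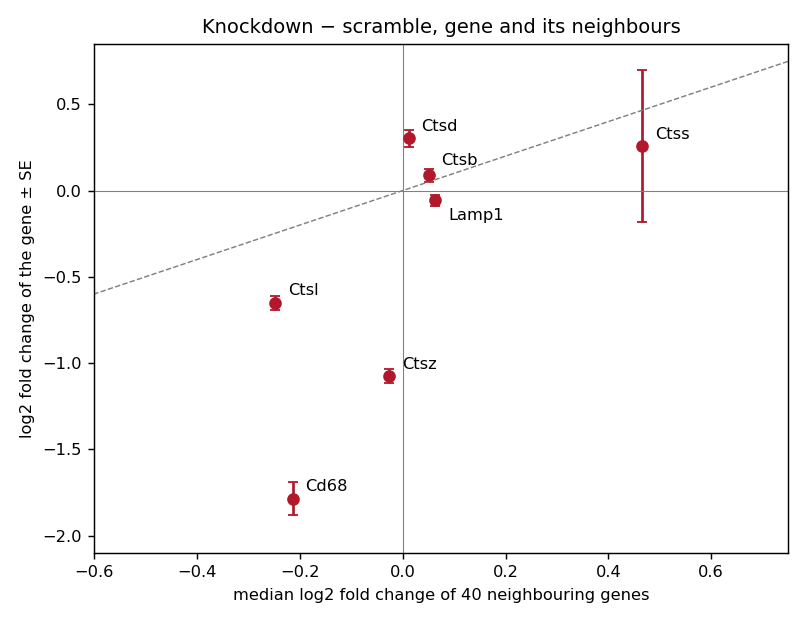
Log2 fold change between knockdown and scramble cells (y axis, with SE) of the 7 tested genes against the median of their 40 neighbouring tested genes (x axis); the dashed line marks equal values. Cd68, Ctsz and Ctsl lie far below the line and Ctsd above it.

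The genes whose levels followed Ctsl most closely over the 9 libraries were Spn, Eya1, Phlda1, Hoxb6 and Il6st, with a Pearson correlation of log2(CPM + 1) of 0.995, 0.994, 0.993, 0.991 and 0.990 among 10520 genes compared. The libraries fall into 3 groups, so these values mostly rank genes by the order of the group means, and they are a description. Spn, a sialoglycoprotein best known from leukocytes, was at 31.3 CPM in scramble, 12.4 in knockdown and 19.7 in add-back cells. Eya1, a relative of the targeted gene, was at 62.5, 25.9 and 37.0 CPM, and Il6st, the shared receptor chain of the interleukin-6 family, at 220.1, 141.8 and 172.8 CPM. Ctsz had a correlation of 0.916 with Ctsl, Cd68 0.796 and Ctsd -0.899.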

How the data were processed

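The authors deposited raw counts per gene for 9 libraries. The submitters' processing notes name STAR, FastQC, MultiQC and mm10, without versions. How reads were assigned to genes, and whether by strand, is not stated in the labels, so overlapping or antisense genes may share reads. Fdft1, Nelfcd and Grtp1 overlap Ctsb, Ctsz and Lamp1. On the same strand, Gm49369 overlaps Ctsd and Gm49230 overlaps Ctsl, and neither had a count in any library. Hmgb1-ps5 overlaps Ctss, also on the same strand, and had from 16 to 34 counts per library. Gm47123 and Gm26522 overlap Ctsl and Ctsc on the opposite strand. Columns were matched to libraries by arm and replicate number; those with the Eya3 hairpin say KD3 where titles say KD2.

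Genes were kept with filterByExpr (minimum count 10, minimum total 15), which left 16766, scaled by TMM, and fitted in R 4.3.3 by edgeR 4.0.16 (robust quasi-likelihood, group only, 6 residual degrees of freedom, Benjamini-Hochberg over tested genes). The SE is the log2 fold change divided by the square root of F. No libraries of a group agreed within sampling noise (chi-square over its degrees of freedom 3.78 to 20.2). The procedure was tested on simulated counts with few genes changed. That run does not cover data in which 57.5% of tested genes were called between knockdown and scramble cells. Positions and transcript lengths (the longest protein-coding transcript of the best support level) are from GENCODE M21 on GRCm38.

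The 10 genes and the gene lists were chosen with earlier results of these data known. Named genes were the 10, Eya3, up to 4 called genes of each of 7 lists with the smallest adjusted p in each of the first 2 comparisons, and the 5 genes most correlated with Ctsl that had a mean of at least 1 CPM; some genes the rule named are not reported here. Alternatives were DESeq2 1.42.0, limma 3.58.1 (voom), other scalings and filters, only the 2 groups compared, a replicate block and leaving out each library.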

Additional observations from a re-analysis of the deposited data

How the results depend on the processing

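Between knockdown and scramble, and between add-back and scramble cells, the calls of Ctsd, Ctsz and Cd68 kept their direction and their side of the threshold in all 17 alternatives, and 3 to 4 of the 9 genes other than Ctsl were called. With no filter on low counts, 4 were called between knockdown and scramble cells. There the added call was among Ctsh, Ctsk and Ctsc, which lie at or near the lower limit of the counts. Between add-back and knockdown cells, the number called ran from 0 to 1 when 1 library was left out. The count over all genes in that comparison rose from 1749 to 2678 with the replicate number as a block. Deviations from the group means correlated from 0.166 to 0.366 between libraries that shared replicate number 1 or 3. For replicate number 2 they correlated from -0.018 to 0.055. Whether equal numbers mark libraries handled together is not in the labels and was not tested. Under the block Ctsb was called higher in the knockdown (adjusted p = 0.0124) and Lamp1 lower in the add-back against scramble cells (0.0227), and no other call of the 6 tested genes changed.

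Of the 7 tested genes, signs turned only for Lamp1, Ctsd and Ctss between add-back and knockdown cells, where none was called. With 1 library left out the difference ran from -0.030 to 0.0053 for Lamp1, from -0.10 to 0.0024 for Ctsd and from -0.38 to 0.15 for Ctss. Lamp1 came to 0.013 with library totals, Lamp1 and Ctsd turned without knockdown replicate 1, and Ctss came to 0.013 without knockdown replicate 2. None of these passed the test, and the cause was not tested. The Ctsl difference between knockdown and scramble came to -0.70 with library totals. Library totals moved the median of all genes between knockdown and scramble to -0.05. Counts of 20 or fewer per library limit Ctss, Ctsk, Ctsh and Ctsc.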

Other observations

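A few lysosomal genes outside the naming rule were picked after their values were seen. All 5 Ragulator genes on the list were called higher in the knockdown than in the scramble cells, Lamtor1 by 0.28, Lamtor2 by 0.43, Lamtor3 by 0.54, Lamtor4 by 0.12 and Lamtor5 by 0.41 on the log2 scale. Over all tested genes 27.7% were called higher and 57.5% were called in that comparison. The call of Lamtor4 (edgeR adjusted p = 0.0389) was lost in 6 of 17 alternatives, among them library totals (adjusted p = 0.210), no filter on low counts (0.0897) and leaving out scramble replicate 2 (0.113), scramble replicate 3 (0.114), knockdown replicate 1 (0.118) or knockdown replicate 2 (0.105). Igf2r, the large mannose 6-phosphate receptor that carries cathepsin precursors, averaged 2.26 CPM in scramble against 4.71 CPM in knockdown libraries (log2 difference 1.06, edgeR adjusted p = 5.34e-07). Dpp7, a lysosomal dipeptidyl peptidase gene, averaged 1.65 against 0.128 CPM in the same order (log2 difference -3.67, edgeR adjusted p = 3.13e-07). Tfeb and Tfe3 differed in opposite directions between knockdown and scramble cells, by 0.53 and -0.19 (edgeR adjusted p = 0.000874 and 0.000919), at 3.60 and 81.0 CPM in the scramble cells.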
